A study of Sus scrofa with 48 samples.

Results

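The genes described here are the collagens, the laminins, the matrix metalloproteinases (MMP), the tissue inhibitors of metalloproteinases (TIMP) and the ADAMTS proteases measured in pig liver. Members were all genes whose symbol in the scanner output has the form of one of these families, without COL21A1, and each gene was represented by its brightest probe. This gave 77 genes with 149 probes, out of 11183 genes with a symbol on the array. Liver RNA of 48 purebred Large White barrows was hybridised with 1 array per pig. After 8 generations of divergent selection there were 2 lines, one of low and one of high residual feed intake (RFI), the feed intake left over after the intake predicted from daily gain and backfat thickness is subtracted. In each line, 12 pigs were fed a high-fat, high-fiber diet (HF) and 12 a low-fat, low-fiber diet (LF), from 74 days of age. The groups are low RFI with HF, low RFI with LF, high RFI with HF and high RFI with LF, with 24 pigs per line and 24 per diet. Each line is a selected population, so that a line difference cannot be told apart from whatever else the lines differ by. The question was which matrix genes differed between lines, between diets, or between lines in a diet-dependent way.

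Collagens are triple-helical proteins built on a short repeat that begins with glycine. Fibrillar collagens form the cables of the portal tracts and of scars, type IV collagen and laminins form the sheets of basement membranes, and type VI collagen forms beaded filaments. MMP and ADAMTS proteases cut these proteins, and TIMP proteins block the proteases. In liver, stellate cells and portal fibroblasts are known as main sources of fibrillar collagen, whereas hepatocytes are a known source of type XVIII collagen, whose end fragment is endostatin.

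Arrays carry 60-base probes, and some sequences of members were spotted under more than 1 probe name, which shows how far a call depends on a single spot. Their sequences are given here as copied from the scanner output, 5′ to 3′. The first is the COL1A2 probe that differed between lines, with the 6 glycine codons of the collagen repeat in capitals. The others, in lower case throughout, are probes of MMP11, COL6A3 and COL6A2 that each occur under 2 names.
COL1A2: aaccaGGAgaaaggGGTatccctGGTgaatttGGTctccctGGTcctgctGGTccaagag
MMP11: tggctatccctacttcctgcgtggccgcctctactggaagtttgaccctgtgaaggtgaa
COL6A3: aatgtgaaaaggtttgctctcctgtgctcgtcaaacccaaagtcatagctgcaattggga
COL6A2: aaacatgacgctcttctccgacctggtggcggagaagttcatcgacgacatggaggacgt

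Values are log2 intensities minus the median of the array, so that 0 is the level of the median tested probe. The brightness of a probe also depends on its sequence, so that levels of different genes are not compared here. Brightness served only to choose a gene's probe and some of the genes to name. Of the 77 members, 42 were well above background on all 48 arrays, 12 on 15 to 47 arrays, and the remaining 23 on at most 10 arrays. Those 23 were not tested, and they include 8 of 18 MMP genes and 6 of 12 ADAMTS genes. The collagens COL2A1, COL4A3, COL4A4, COL9A2, COL19A1 and COL28A1 and the laminins LAMA1 and LAMB3 were among them. The 7 hepatocyte markers with a probe were detected on all 48 arrays, with mean log2 levels from 9.03 (FGB) to 11.14 (ALB) over the array median. Between 65.8% and 77.2% of probes were well above background on an array, and the median correlation of an array with the others was 0.979 to 0.985 over tested probes.

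Of the 54 tested members, 7 differed between lines at P under 0.01 and FC over 1.1, the call rule used throughout. COL14A1, COL16A1, COL8A2 and LAMB2 were higher in the low RFI line, and TIMP3, MMP14 and MMP24 were lower. The share of members called was 12.96%, beside 6.91% of all 45236 tested probes and 6.76% of the brightest probes of genes with a symbol. Of all tested probes, 3.42% were called higher and 3.49% lower in the low RFI line. After Benjamini-Hochberg adjustment over all tested probes (P-BH), COL14A1, COL16A1, LAMB2 and TIMP3 were below 5%, beside 3.93% of all tested probes. The median log2 difference of the members was 0.03, beside 0.01 for all tested probes, and the median of its size was 0.09, beside 0.07.

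**Figure D1:**
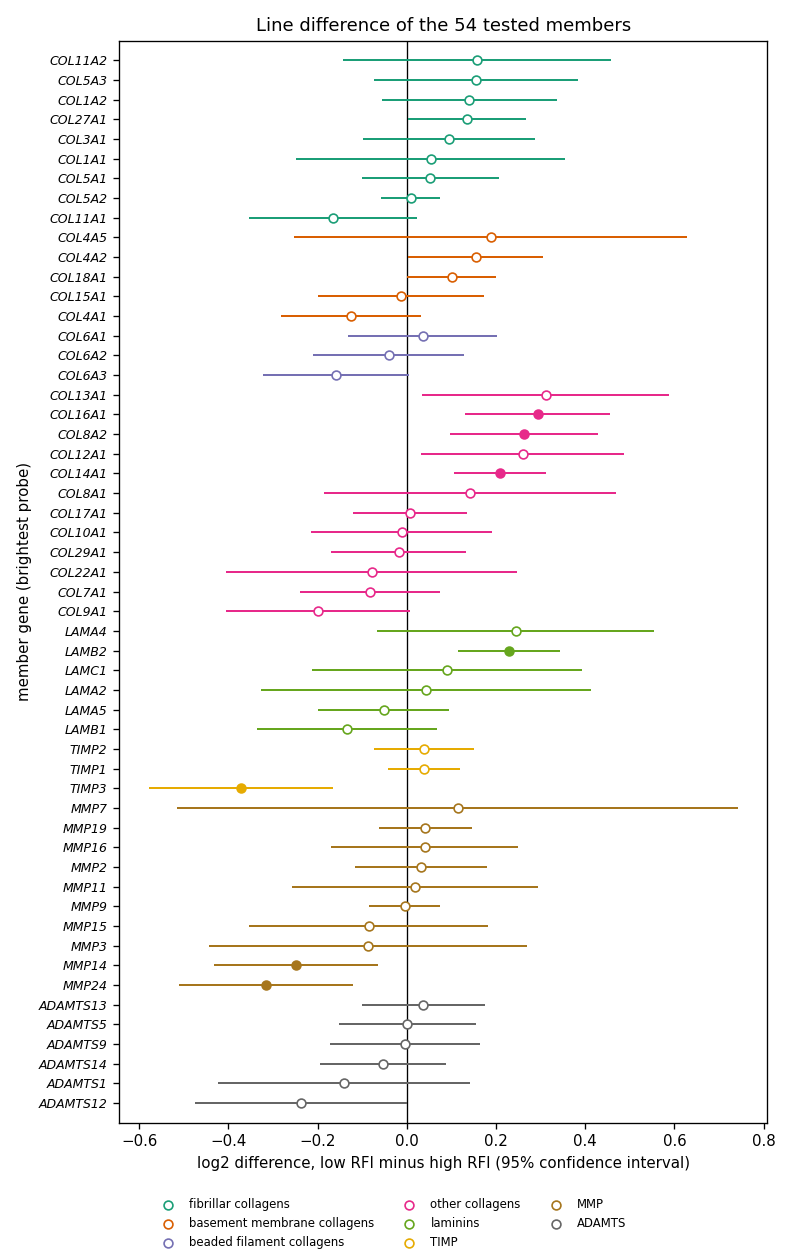
Line difference of the brightest probe of each of the 54 tested members, as log2 of low RFI minus high RFI, with 95% confidence intervals from limma (24 pigs per line). Filled points met P under 0.01 and FC over 1.1, and these are COL14A1, COL16A1, COL8A2 and LAMB2 to the right of 0 and TIMP3, MMP14 and MMP24 to the left.

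COL14A1 and COL16A1 encode collagens of the class that sits on the surface of fibrils and links them to other matrix proteins. The level of COL14A1 was lowest at 2.41, median 2.84 and highest at 3.05 in the low RFI line, and 2.24, 2.57 and 2.80 in the high RFI line. The lines overlapped, but 21 of 24 low RFI pigs exceeded the high RFI median. The difference was 0.21 ± 0.05 (SE; FC of 1.16, limma P = 0.000176, P-BH = 0.00931). Arrays were scanned on 2 days with all groups on each, and COL14A1 differed by 0.13 on the first day, where the call was lost, and by 0.29 on the second. COL16A1 ranged from 1.58 through a median of 2.06 to 2.63 in the low RFI line and from 1.21 through 1.67 to 2.46 in the high RFI line. Again 21 of 24 low RFI pigs exceeded the high RFI median, and the difference was 0.29 ± 0.08 (FC of 1.23, limma P-BH = 0.0246). The other probe of COL16A1 differed the same way, by 0.22 ± 0.08 (limma P = 0.00503).

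COL8A2 encodes a chain of the short-chain type VIII collagen. Its level was lowest at -3.32, median -2.54 and highest at -1.91 in the low RFI line, against -3.38, -2.81 and -2.30 in the high RFI line. The high RFI median was exceeded by 19 low RFI pigs, and the difference was 0.26 ± 0.08 (limma P = 0.00255, P-BH = 0.0597). Its signal was dim, and the difference was 0.12 without background subtraction, 0.09 under normexp background correction and 0.13 in the deposited log2 values, below the FC limit in all 3. Among the other collagens of this group, COL13A1 (0.31, limma P = 0.0285) and COL12A1 (0.26, limma P = 0.0266) did not pass the call rule.

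LAMB2 encodes the laminin beta 2 chain of basement membranes. Its level was 3.55 in the lowest, 3.76 in the median and 4.06 in the highest low RFI pig, against 3.04, 3.55 and 3.94 in the high RFI line. All 24 low RFI pigs exceeded the high RFI median, while the ranges overlapped. The difference was 0.23 ± 0.06 (FC of 1.17, limma P = 0.000183, P-BH = 0.00958), with 0.20 and 0.26 on the scan days. None of the other 5 tested laminins passed, and their log2 differences ran from -0.13 for LAMB1 to 0.24 for LAMA4, an alpha chain of vessel walls, whose 95% interval was -0.07 to 0.55. LAMC1, the gamma chain shared by most laminins, differed by 0.09 (-0.21 to 0.39).

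TIMP3 was lower in the low RFI line, and it encodes the inhibitor that is bound to the matrix and that also blocks ADAM and ADAMTS proteases. Its level was 2.83 in the lowest, 3.33 in the median and 3.97 in the highest low RFI pig, against 3.08, 3.80 and 4.43 in the high RFI line. Of 24 low RFI pigs, 19 fell short of the high RFI median. The difference was -0.37 ± 0.10 (FC of 1.29, limma P = 0.000699, P-BH = 0.025), from its only probe, with -0.44 and -0.31 on the scan days. TIMP1 and TIMP2, the secreted inhibitors, differed by 0.04 ± 0.04 and 0.04 ± 0.06, with 95% intervals of -0.04 to 0.12 and -0.07 to 0.15.

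MMP14 and MMP24 are both membrane-anchored proteases, and MMP14 is known to cut fibrillar collagen and to activate MMP2. MMP24 ranged from 1.44 through a median of 1.83 to 2.60 in the low RFI line and from 1.33 through 2.24 to 2.87 in the high RFI line. Its difference was -0.32 ± 0.10 (FC of 1.24, limma P = 0.00202, P-BH = 0.0509), and 19 of 24 low RFI pigs fell short of the high RFI median. MMP14 ranged from 3.04 through 3.64 to 4.07 in the low RFI line and from 3.20 through 3.81 to 4.56 in the high RFI line. Its difference was -0.25 ± 0.09 (FC of 1.19, limma P = 0.00935, P-BH = 0.135), with 16 low RFI pigs short of the high RFI median. The MMP14 call was lost in an ordinary ANOVA (P = 0.0104), in limma with no filter on dim probes (P = 0.0118) and within each scan day, where the differences were -0.29 and -0.20. MMP2, the gelatinase that cleaves type IV collagen, differed by 0.03 ± 0.07, and MMP9, the other gelatinase, had a 95% interval of -0.08 to 0.07.

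**Figure D2:**
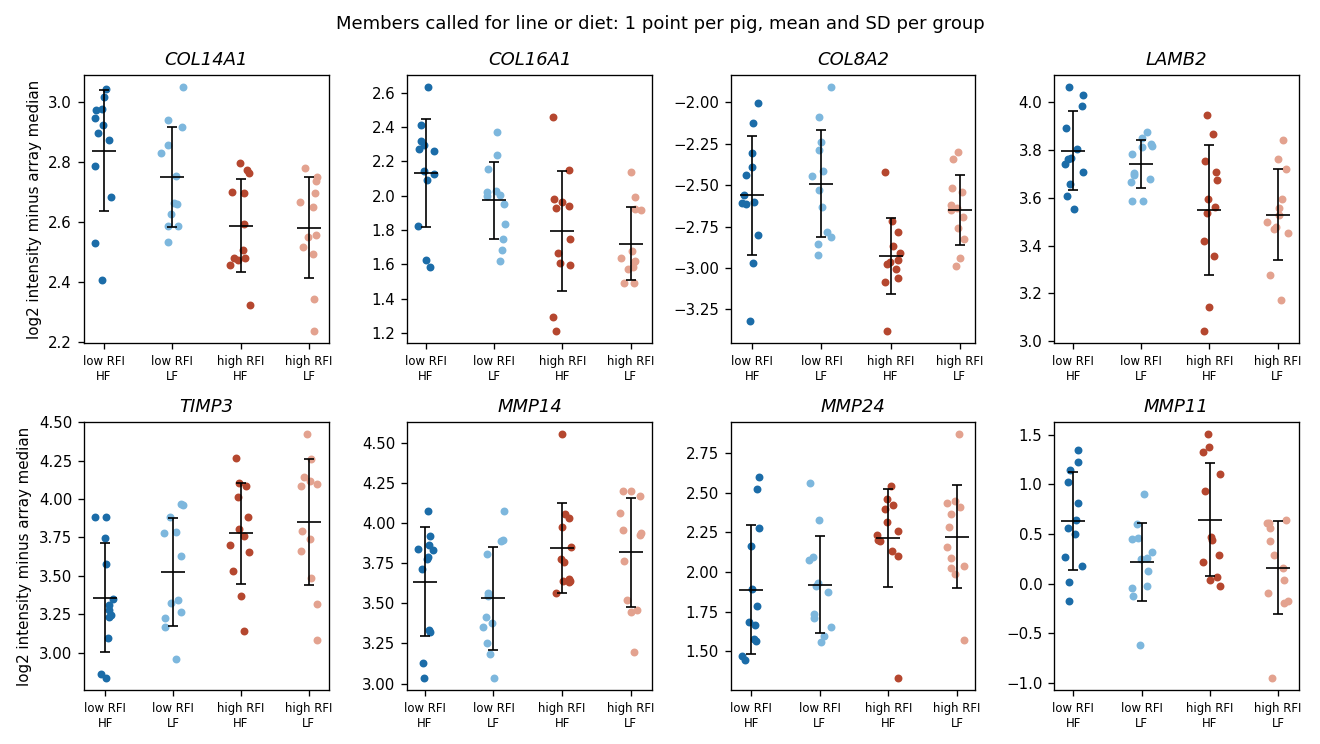
Log2 intensity minus the array median of the 8 members called for line or diet, 1 point per pig, with the mean and SD of the 12 pigs of each group. The lines overlap in all 8 genes, LAMB2 has all 24 low RFI pigs above the high RFI median, and the mean of MMP11 is higher with HF than with LF in both lines (0.63 against 0.21 in low RFI and 0.64 against 0.16 in high RFI).

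The major collagens did not pass for line. COL1A1 and COL3A1, fibrillar collagens of the portal tracts, differed by 0.05 (95% interval -0.25 to 0.35) and 0.09 (-0.10 to 0.29). COL18A1, whose level lay between 8.48 and 9.14 in all 48 pigs, differed by 0.10 ± 0.05 (limma P = 0.047), and COL4A2, a chain of the basement membrane network, by 0.15 ± 0.08 (limma P = 0.0464). COL4A1, the partner chain of COL4A2, had a brightest probe at -0.13 ± 0.08 (limma P = 0.114) and a dimmer one at 0.31 ± 0.15 (limma P = 0.0415). Of the 9 tested fibrillar collagens, 8 had a positive difference, beside 32 of all 54 tested members, and none of the 9 passed. These genes are not independent, as COL1A1 varied with COL1A2 and COL3A1 from pig to pig (given below). COL6A3 and COL6A1, chains of the beaded filaments, differed by -0.16 (-0.32 to 0.01) and 0.04 (-0.13 to 0.20), and the collagen spotted under the symbol COL29A1 by -0.02 (-0.17 to 0.13). No ADAMTS gene passed through its brightest probe, and ADAMTS14, a protease that trims procollagen, differed by -0.05 (-0.19 to 0.09).

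Probes of 1 gene did not always give the same difference. COL8A2, LAMB2, TIMP3, MMP14 and MMP24 had 1 probe each, so that no second probe could be set beside their calls. COL14A1 had 12 tested probes, all positive. The 5 called ones had differences of 0.18 to 0.22. Of those not called, 3 gave 0.08 to 0.09, 2 gave 0.05 and 0.06, and 1 more gave 0.06. The largest difference, 0.22 ± 0.09, was that of the dimmest probe, which was not called (limma P = 0.0155). The probes were not placed along a common transcript, so that no order by position is given. For ADAMTS5, an aggrecan-cleaving protease, the brightest probe differed by 0.00 ± 0.08. The other probes differed by -0.65 ± 0.17 (limma P-BH = 0.0193) and -1.33 ± 0.26. The probe with the difference of -1.33 exceeded background on 18 arrays, from 5 low RFI and 13 high RFI pigs. It thus passed the filter of 12 arrays only through the high RFI line, so that its P is not given and its call is not read as a line difference. Its difference ran from -1.75 to -0.22 over the alternatives, and neither of these 2 probes was called on the second scan day. The 3 ADAMTS5 probes thus gave no single line difference for the gene.

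The COL1A2 probe shown above differed by 0.17 ± 0.06 (limma P = 0.00557), while the brightest COL1A2 probe gave 0.14 ± 0.10 and did not pass. The COL6A3 sequence shown above was spotted under 2 names. Under one name it gave -0.17 ± 0.06 (limma P = 0.00897), under the other -0.08 ± 0.07 (limma P = 0.206), and within a pig the spots differed by 0.11 on average. Its call therefore rested on 1 of 2 identical spots. The same call was lost under 6 of 13 alternatives. The 2 spots of the dim COL6A2 sequence gave 0.28 and 0.03, with a mean difference within a pig of 0.49.

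**Figure D3:**
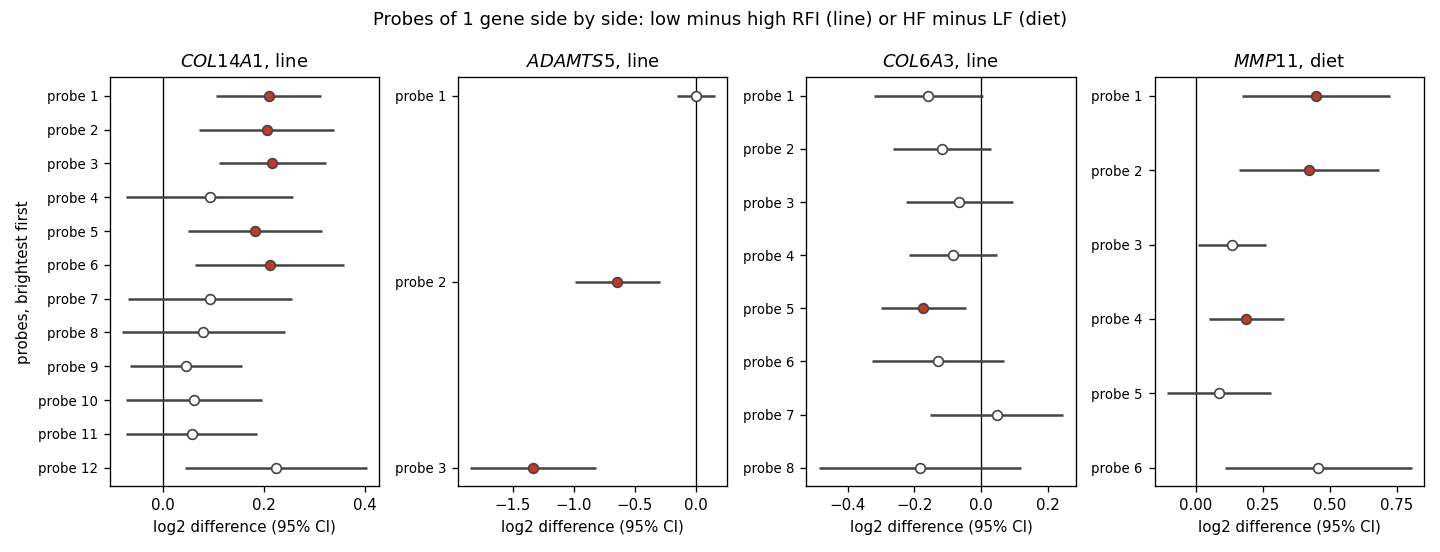
Log2 difference with 95% confidence interval for each tested probe of COL14A1, ADAMTS5 and COL6A3 (low RFI minus high RFI) and of MMP11 (HF minus LF), ordered by brightness, with called probes filled. COL14A1 had 5 of 12 probes called, ADAMTS5 had 2 of 3 without the brightest, COL6A3 had 1 of 8 and MMP11 had 3 of 6.

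One member was called for diet. MMP11, stromelysin 3, is a protease of stromal cells, and it was higher with HF. Its level was -0.17 in the lowest, 0.53 in the median and 1.51 in the highest HF pig, against -0.95, 0.25 and 0.90 with LF. The diets overlapped, with 17 of 24 HF pigs above the LF median. The difference was 0.45 ± 0.14 (FC of 1.37, limma P = 0.00197, P-BH = 0.113), with 0.48 and 0.42 on the scan days and 0.29 for the mean over its probes. The MMP11 sequence shown above gave 0.14 ± 0.06 under one name and 0.19 ± 0.07 under the other, of which only the latter was called. All 6 tested probes of MMP11 had positive differences.

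This is 1 of 54 members, or 1.85%, beside 4.61% of all tested probes, 2.07% of them called higher with HF. By limma, 0 members reached a P-BH of 5% through their brightest probe, beside 0.455% of all probes, and 12 of the 54 members had an unadjusted P under 0.05, beside 14.4% of all tested probes. Their values were higher with HF in 6 and lower in 6. Beside MMP11, the former were ADAMTS12 (0.25 ± 0.12), COL1A2 (0.23 ± 0.10), COL3A1 (0.23 ± 0.10), LAMC1 (0.35 ± 0.15), the shared laminin gamma chain, and MMP2 (0.15 ± 0.07), none of them called. MMP9 had a limma P of 0.00786 but a log2 difference of -0.11, below the FC limit. Probes of these genes did not all go the same way. The 3 tested MMP9 probes ran from -0.18 to 0.31 and the 4 of COL1A2 from -0.07 to 0.34. The other members with lower values were COL11A2 (-0.34 ± 0.15), COL9A1 (-0.25 ± 0.10), ADAMTS5 (-0.18 ± 0.08), COL8A2 (-0.17 ± 0.08) and COL17A1 (-0.14 ± 0.06), none of them called. COL5A2, a minor fibrillar chain, had a dim probe called at 0.33 ± 0.08 (limma P-BH = 0.0404), while its brightest probe gave 0.01 ± 0.03. A pair of COL14A1 probes of the same sequence was called lower with HF, by -0.16 ± 0.06 (limma P = 0.00569) and -0.19 ± 0.07 (limma P = 0.00637), while its brightest probe gave 0.05 ± 0.05. TIMP1, TIMP2 and TIMP3 differed between diets by -0.03 ± 0.04, 0.05 ± 0.06 and -0.12 ± 0.10. The 4 tested TIMP1 probes ran from -0.03 to 0.20.

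**Figure D4:**
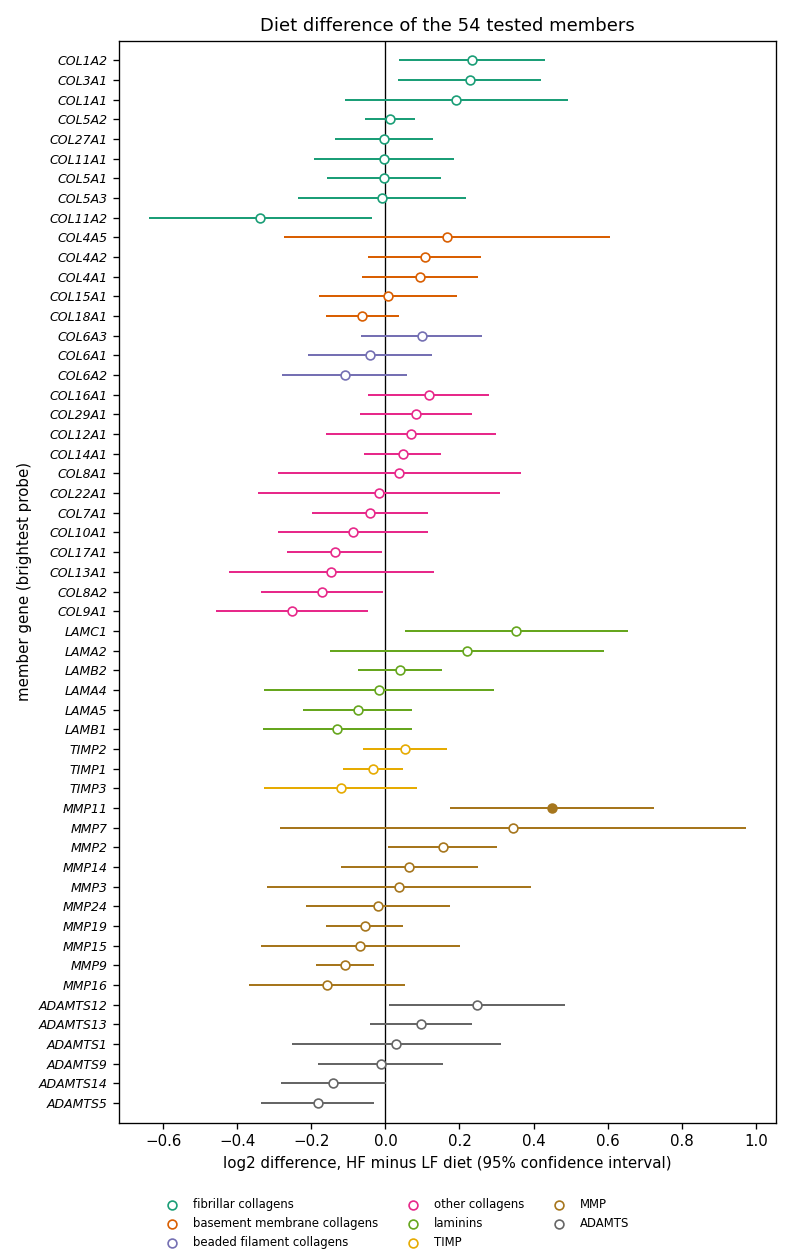
Diet difference of the brightest probe of each of the 54 tested members, as log2 of HF minus LF, with 95% confidence intervals from limma (24 pigs per diet). MMP11 is the filled point at 0.45, and, without meeting the call rule, the intervals of ADAMTS12, COL1A2, COL3A1, LAMC1 and MMP2 lie above 0 and those of COL11A2, COL9A1, COL8A2, COL17A1, ADAMTS5 and MMP9 below 0.

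No dependence of the line difference on diet passed the test. No member was called for the interaction, beside 0.376% of all tested probes (0% at a P-BH of 5%), and 0 of 54 had an unadjusted limma P under 0.05, beside 2.37% of all tested probes. The ordinary ANOVA also gave 0 calls. The smallest P was that of COL4A2, with a line difference 0.27 lower in HF than in LF (limma P = 0.0835).

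Members differed widely in how much pigs of one group varied. Among members well above background on all arrays, the SD within groups was smallest for COL5A2 (0.10) and MMP9 (0.13) and largest for MMP7 (1.11), matrilysin, a protease of epithelial cells, and COL8A1 (0.58), with a median of 0.28. MMP7 ran from -2.18 to 3.19 over the 48 pigs, with line medians of 1.25 and 1.21. Its 95% interval for line, -0.51 to 0.74, leaves a difference of either sign possible.

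Partner genes were compared pig by pig, as deviations from the group mean, in 17 pairs. Of these, 8 pairs were positively correlated at a P-BH of 5% over the pairs, and 0 negatively. Slide and scan day were not removed from the deviations, and the share for arbitrary pairs of probes was not computed. Pairs of chains that did not reach it were COL6A3 with COL6A1 (r = -0.116) and with COL6A2 (-0.0868), and COL5A1 with COL5A2 (0.241). The same held for LAMC1 with LAMB1 (-0.228), LAMB2 (-0.131), LAMA4 (0.287) and LAMA2 (0.29). COL1A1 and COL1A2, the chains of type I collagen, had r = 0.867 and rho = 0.849 (permutation P = 1e-05 for both, the smallest that 100000 resamples give, P-BH = 5.67e-05), with r = 0.88 and r = 0.825 within the scan days and 0.847 without the 2 farthest pigs. COL1A1 was also correlated with COL3A1 (r = 0.798, rho = 0.785) and MMP2 (r = 0.73, rho = 0.71), both with permutation P = 1e-05 and P-BH = 5.67e-05, and r stayed between 0.646 and 0.876 within scan days and 0.78 and 0.702 without the 2 farthest pigs. TIMP3 was not detectably correlated with COL1A1 (r = 0.144, rho = 0.0669, permutation P = 0.328 and 0.652, P-BH = 0.398 and 0.693), with r = 0.291 and r = -0.0836 within scan days.

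Other pairs were weaker. COL3A1 with COL5A2 had r = 0.465 (0.759 and 0.329 within scan days). MMP2 with TIMP2 had r = 0.364 (0.577 and 0.0996 within scan days). Neither of these reached a P-BH of 5% on the second day. COL4A1 and COL4A2, the main chains of basement membranes, had r = 0.535 and rho = 0.469 (permutation P = 9e-05 and 0.00082, P-BH = 0.000382 and 0.00279), with 0.662 and 0.336 within scan days and 0.414 without the 2 farthest pigs. MMP14 and its binding partner TIMP2 had r = 0.4 and rho = 0.386 (permutation P = 0.00484 and 0.00705, P-BH = 0.0137 and 0.02), with 0.433 and 0.306 within scan days, neither at a P-BH of 5%, and 0.395 without the 2 farthest pigs. COL6A1 with COL6A2 had r = 0.387 and rho = 0.357 (permutation P = 0.00635 and 0.0137, P-BH = 0.0154 and 0.0292). The relation held on 1 scan day only (0.652 and -0.0012). Without the 2 pigs farthest from the COL6A1 median, r was 0.27 and did not reach a P-BH of 5% (permutation P = 0.0698, P-BH = 0.108). Without background subtraction the same r was 0.523.

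**Figure D5:**
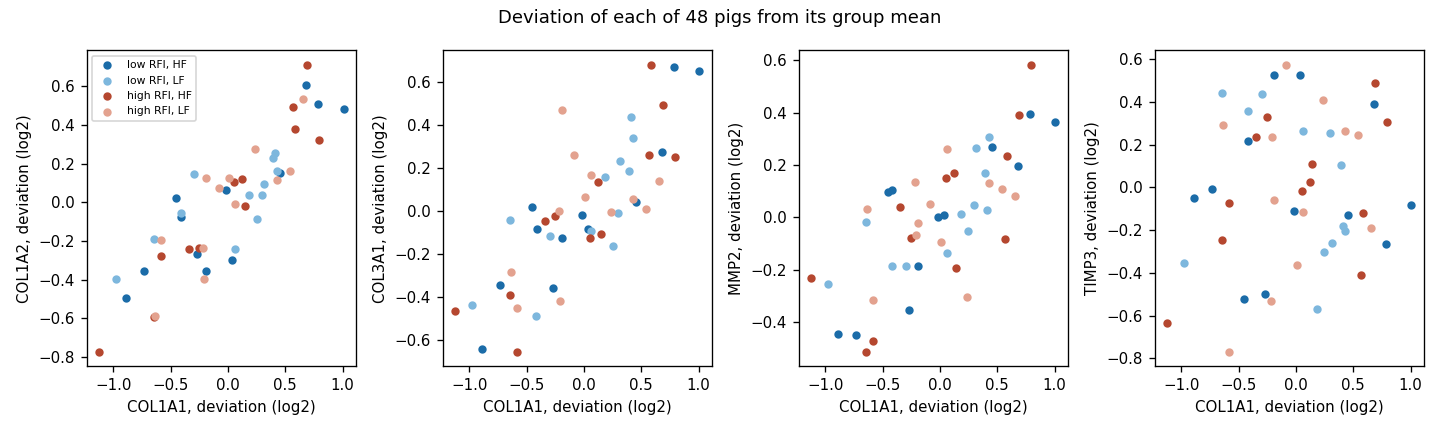
Deviation of each of 48 pigs from the mean of its group for COL1A1 (horizontal) against COL1A2, COL3A1, MMP2 and TIMP3 (vertical), in log2 units and coloured by group. COL1A2 (r = 0.867), COL3A1 (r = 0.798) and MMP2 (r = 0.73) rise with COL1A1, and TIMP3 (r = 0.144) does not.

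Other genes of the matrix were counted from lists. Of 18 tested genes of collagen processing, 1 was called for line, CRTAP (0.18), part of the enzyme complex that hydroxylates proline, and 1 for diet, P4HA1 (0.31), a prolyl hydroxylase. Of 27 other matrix proteins, MFAP2 (0.47), POSTN (0.29) and TNC (0.30) were higher in the low RFI line, and NID1 (0.24), the linker of laminin to type IV collagen, was higher with HF. Of 14 matrix receptors, the integrin ITGB5 was lower in the low RFI line (-0.40). Of 22 genes of TGF-beta signalling, LTBP1 was lower (-0.67) and LTBP2 higher (0.28) in the low RFI line, while SMAD3 (0.20) and SMAD7 (0.29) were higher with HF. Of 16 genes of other proteolysis, the hepatocyte protease HPN was higher in the low RFI line (0.16) and lower with HF (-0.19), and CTSK, a collagen-degrading cathepsin, was higher with HF (0.25). The median line differences of these lists lay between -0.02 and 0.06, beside 0.01 for all tested probes. Of all tested probes, 6.91% were called for line and 4.61% for diet. Of the list genes called for line, only MFAP2, ITGB5, LTBP1 and HPN were below a P-BH of 5%. Of those called for diet, only NID1, CTSK and HPN were.

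In these bulk samples, fewer cells of a type and less RNA per cell cannot be told apart. The counts of called markers stand beside 6.91% of all tested probes called for line and 4.61% for diet. Of 11 tested markers of stellate cells and fibroblasts, 1 was called for line, the pericyte gene RGS5 (0.87), with a list median of 0.00, and 0 for diet. The log2 of their summed level ranged from 6.43 to 6.77 in the low RFI line and from 6.34 to 6.84 in the high RFI line. Of 4 tested bile duct markers, KRT7 was lower in the low RFI line (-0.35), with a list median of -0.23 and log2 summed levels of 1.29 to 3.15 against 1.54 to 3.48. CFTR and the smooth muscle marker MYH11 were too dim to test. Of the 3 tested smooth muscle, 8 endothelial, 5 macrophage and 8 lymphocyte markers, 0 were called for either effect by limma. Their median line differences were 0.10, 0.09, -0.18 and -0.13, and their median diet differences -0.26, -0.01, 0.13 and -0.01. The bile duct markers had a median diet difference of 0.26, with log2 summed levels of 1.83 to 3.48 with HF against 1.29 to 3.04 with LF. Of 7 hepatocyte markers, APOA1 was higher in the low RFI line (0.15), and the log2 summed level was 12.9 to 13.4 against 12.7 to 13.3. The same level was 7.06 to 7.74 against 6.78 to 7.54 for endothelium and 8.47 to 9.23 against 8.54 to 9.11 for macrophages. For lymphocytes it was 2.61 to 3.97 against 2.78 to 3.95, and the ranges of the lines overlapped in every list given here. Such overlap does not show equal cell content, and a summed level is weighted to the brightest probe of its list. For macrophages this was CD5L (mean level 8.53), with a line difference of 0.11. C1QA, CD163, CD68 and VSIG4 differed by -0.19, -0.18, -0.09 and -0.20. The part of these cell types in the line differences and in the diet difference of MMP11 was not tested.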

How the data were processed

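Liver RNA of 48 pigs, killed 2 h after a meal at about 132 days of age, was hybridised to 1-colour 60-base Agilent arrays. For each array, the authors deposited scanner output (Feature Extraction 10.7.3.1) with spot intensity values, not normalized between arrays. They also deposited a table of log2 values of 37379 spots; tested here, these were log2 median intensities without background subtraction minus the median of each sample. The submitters' processing notes name R 2.10.0.

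Here the background-subtracted intensity was used. Control spots were left out, 483 outlier spots were set to missing in the fit, log2 values were centred on the array median, and tests were run on probes that exceeded background (Agilent's well-above-background flag) on 12 arrays or more. Line, diet and their interaction were fitted with limma 3.58.1 in R 4.3.3, where the study's methods name an ANOVA, which was run as an alternative. The fit was tested on simulated data. Calls were P under 0.01 with FC over 1.1, and P-BH was taken over all tested probes. Arrays were scanned on 2 days, and each of 6 slides held 2 arrays of each group. The number of arrays limits the precision. Each array is 1 pig.

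Members and lists, and the omission of COL21A1, were chosen with earlier results of these data known. Named were all called members, those with another probe called for line, the 2 brightest per family, all TIMP and the 2 most and 2 least variable; others were added after their values were seen. Symbols are those of the array's design (COL29A1 is an older name of COL6A5); 30 member probes had an accession in the RefSeq table, and 28 kept their symbol, the others being MMP25 probes that the table names MMP20. Genome positions were not used here.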

Additional observations from a re-analysis of the deposited data

How the results depend on the processing

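For line, 7 members were called, and 6 to 8 under the alternatives that used all 48 pigs, with 6 or 7 of them shared. Of all features tested in these alternatives, 5.31% to 7.21% were called. The alternatives were an ordinary ANOVA, centring on the 75th percentile, quantile normalization, normexp, no background subtraction, no filter, a filter on all arrays, slide as a fixed term, outlier spots retained, the deposited table (45 members), no interaction term and the mean over the probes of a gene. Without a filter all 77 members were tested, and COL19A1, too dim for the main test, was called. With the mean over probes, ADAMTS5 was called, whose probes gave no single difference. With the 24 pigs of a single scan day, by limma, 1 member, MMP24, was called on the first scan day (beside 3.84% of all tested probes; 0 at a P-BH of 5%, 8 at an unadjusted P under 0.05) and 4 on the second, COL14A1, COL16A1, LAMB2 and COL11A1 (beside 3.62% of all tested probes; 1 at a P-BH of 5%). All 7 differences kept their direction in every alternative. TIMP3 ranged from -0.44 to -0.31, LAMB2 from 0.20 to 0.26 and COL14A1 from 0.13 to 0.29, and COL14A1 was not called on the first day (0.13). The call of COL8A2 was lost under 5 alternatives and that of MMP14 under 4. For diet, 3 members were called under normexp (COL11A2 and COL9A1 beside MMP11), beside 4.77% of all tested probes. With the mean over probes, 2 were called (COL5A2 beside MMP11), beside 4.42% of all genes and unnamed probes. On the first day 0 were called (4 at an unadjusted P under 0.05), beside 1.78% of all tested probes. On the second, 2 were called, COL3A1 and LAMC1, beside 2.06%. Within the second day, 5 pairs were correlated at a P-BH of 5% in place of 8, COL6A1 with COL6A2 had r = -0.0012, and COL6A2 with COL6A3 had r = 0.613 against -0.0868 over all pigs. The interaction gave 0 called members in all alternatives run, by limma and by ANOVA. The cause of these changes was not tested, but a single day holds fewer pigs. For dim probes, signal over background limits what can be seen. No paired analysis was possible because all titles carry the same replicate number, which pairs no pigs; slide was the only block.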
